A study of Mus musculus with 4 samples.

Results

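The immediate early transcription factors were followed in mouse embryonic fibroblasts (MEFs) that were left untreated or treated with doxorubicin. The group holds 10 of the 31709 named genes on the array and was taken by gene name: the FOS family genes Fos, Fosb, Fosl1 and Fosl2, the JUN family genes Jun, Junb and Jund, and Atf3, Egr1 and Myc. The study compared p53+/+ (wild-type, WT) MEFs with p53-/- MEFs, each without and with doxorubicin, a drug that breaks DNA through topoisomerase II, to look for genes under p53 control that act on myosin. RNA of each of the 4 conditions was labeled with Cy3 and hybridized to 1 one-color Agilent mouse array, and all 4 arrays were on 1 slide. There is thus no replicate of any condition, and the ratios within a genotype and the difference between them have no test. No p-value is given, and a fit of genotype and drug without their interaction, which the 4 arrays would allow, was not run. An effect of the position on the slide cannot be told apart from that of the condition. The dose and time of doxorubicin used for the arrays, the strain of the mice, the p53 allele and the number of embryos behind each culture are not given in the sources used here.

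Immediate early genes are transcribed within minutes of a growth signal or a stress, without new protein synthesis, because the factors that switch them on already sit in the cell and are activated by MAP kinases. FOS and JUN proteins pair through leucine zippers to form AP-1, which binds a short DNA site and drives genes of proliferation, matrix turnover and inflammation. In fibroblasts, release of serum-starved cells into serum is the classic setting in which Fos, Egr1 and Myc are switched on, and ultraviolet light and other DNA damaging agents are known to induce Jun, Fos and Atf3.

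Upstream sequences from RefSeq (build GRCm38.p6, the 250 bases before the annotated start of each gene) were given for 7 of the 10 genes. The 5 below belong to genes whose signal was at least 2-fold higher with doxorubicin in p53-/- MEFs, and they are shown because letters that match short sites of CREB, ATF and AP-1 factors lie in them. Capitals mark the core of the cAMP response element (CRE), TGACG or CGTCA on the opposite strand, the CRE-like site TGACATCA and the EGR site GCGGGGGCG. Fos is at chr12:85473640-85473889 on the plus strand, and Fosb at chr7:19310046-19310295, Jun at chr4:95052223-95052472, Junb at chr8:84978749-84978998 and Atf3 at chr1:191183334-191183583 are on the minus strand.
Fos: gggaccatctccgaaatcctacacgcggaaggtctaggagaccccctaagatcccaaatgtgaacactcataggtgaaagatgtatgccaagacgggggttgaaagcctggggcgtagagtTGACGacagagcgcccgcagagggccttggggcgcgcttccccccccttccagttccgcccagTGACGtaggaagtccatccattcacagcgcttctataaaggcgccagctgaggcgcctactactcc
Fosb: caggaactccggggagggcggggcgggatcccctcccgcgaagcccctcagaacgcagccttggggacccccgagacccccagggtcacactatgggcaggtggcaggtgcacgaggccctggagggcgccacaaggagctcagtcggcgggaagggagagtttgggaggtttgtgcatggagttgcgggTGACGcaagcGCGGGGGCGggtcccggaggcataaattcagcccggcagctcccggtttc
Jun: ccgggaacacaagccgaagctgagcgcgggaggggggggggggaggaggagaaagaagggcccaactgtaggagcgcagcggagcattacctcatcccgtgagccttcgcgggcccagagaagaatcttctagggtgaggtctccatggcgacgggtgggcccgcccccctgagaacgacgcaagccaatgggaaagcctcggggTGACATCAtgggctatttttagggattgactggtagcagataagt
Junb: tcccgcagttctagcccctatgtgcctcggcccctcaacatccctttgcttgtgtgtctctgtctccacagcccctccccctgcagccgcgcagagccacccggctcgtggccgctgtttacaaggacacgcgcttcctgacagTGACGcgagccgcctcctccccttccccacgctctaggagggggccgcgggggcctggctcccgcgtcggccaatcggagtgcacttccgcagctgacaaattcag
Atf3: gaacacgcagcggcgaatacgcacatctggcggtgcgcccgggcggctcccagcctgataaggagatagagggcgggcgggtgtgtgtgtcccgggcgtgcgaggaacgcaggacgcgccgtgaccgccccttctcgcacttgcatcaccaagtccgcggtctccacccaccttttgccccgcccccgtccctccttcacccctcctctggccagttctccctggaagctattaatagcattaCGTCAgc

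The CRE core TGACG, searched on both strands, was found in 4 of the 7 upstream sequences. It lay 129 and 66 bases before the start of Fos, 60 bases before that of Fosb, 106 bases before that of Junb and 7 bases before that of Atf3. This core was present in 17.8% of 32851 upstream sequences of the same length. It was chosen after the 7 sequences were seen, so its count beside that share cannot show an enrichment. The CRE-like site TGACNTCA, which contains the TGACG core where N is G, was found 45 bases before the start of Jun as TGACATCA, and in 7.49% of all sequences. The EGR site GCGNGGGCG lay 50 bases before the start of Fosb and 79 bases before that of Fosl2 (chr5:32136222-32136471, plus strand), and was in 4.70% of all sequences. The AP-1 site TGACTCA (4.46% of all sequences), the E-box CACGTG bound by MYC (6.02%), the serum response element known as the CArG box (1.47%) and the p53 half-site (7.13%) were found in 0 of the 7 windows, and the Jund window (chr8:70697489-70697738, plus strand) held none of the motifs searched. Bases further upstream than these 250 were not searched, and no sequence was given for Fosl1, Egr1 and Myc. The absence of a site therefore holds for these windows only. A match is a description of letters, and binding was not measured.

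The signal of a spot is its background-subtracted fluorescence in arbitrary units, before scaling between arrays. Levels and ratios are log2 values after each array was divided by its own 75th percentile, so that 1 on the log2 scale is 2-fold. A ratio was counted as measured where the probe was well above background on both arrays, and as higher or lower where it was at least 2-fold. The 75th percentile signals were 2074 in untreated WT, 1819 in doxorubicin-treated WT, 1881 in untreated p53-/- and 2421 in doxorubicin-treated p53-/- MEFs. All 10 genes were measured on all 4 arrays. The only error that can be given is that between copies of a probe on an array: over 253 probes spotted 10 times, the median SD was 0.06 on the log2 scale, which corresponds to 0.08 for a ratio and 0.12 for a difference between ratios. It holds no variation between cultures.

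The labels were checked with Trp53, the gene that encodes p53. Its signals were 1228 in untreated WT, 3442 in doxorubicin-treated WT, 442 in untreated p53-/- and 543 in doxorubicin-treated p53-/- MEFs. Both p53-/- arrays were thus below both WT arrays, and the log2 ratio of p53-/- over WT was -1.33 without and -3.08 with doxorubicin. Signal remained in the p53-/- arrays, where the probe was above the brightest negative control spots (250.1 and 120), and whether it lies in the part removed from the mutant allele is not known here. The check therefore shows a lower Trp53 signal, not its absence. All 12 fibroblast markers were well above background on all 4 arrays, and the brightest was Col1a2, a chain of type I collagen, with signals from 357482 to 609265. Their summed signal, in units of the 75th percentile, was 1024 in untreated WT, 822 in treated WT, 805 in untreated p53-/- and 635 in treated p53-/- MEFs. With doxorubicin, 5 of the 12 were at least 2-fold lower in WT MEFs and 2 in p53-/- MEFs, against 10.4% and 6.89% of all measured genes, and 0 were higher in either. The lower ones included Lum, a matrix proteoglycan (log2 ratios of -4.81 and -2.34), Pdgfrb (-2.44 and -1.73) and, in WT only under this scaling, Pdgfra (-3.36, against -0.89), both genes of growth factor receptors. With the array median, which lowers each doxorubicin ratio, Pdgfra was also past 2-fold lower in p53-/- MEFs. So were the collagen genes Col1a2 (-0.80 here) and Col5a1 (-0.87 here) in p53-/- MEFs and Col3a1 (-0.73 here) in WT MEFs. The counts of lower markers in the 2 genotypes were thus closer to each other under that scaling. Thy1, a surface glycoprotein, had ratios of 0.25 and 0.80, and Dcn, the proteoglycan decorin, of -1.30 and 0.30. The part of this shift in the values of the 10 genes was not tested.

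Fos, Fosb and Fosl1 had higher levels with doxorubicin in both genotypes, while Atf3 had ratios of opposite direction. In WT MEFs, 3 of the 10 genes were at least 2-fold higher with doxorubicin (Fos, Fosb and Fosl1) and 0 were lower, where 11.0% of all 17513 measured genes were higher and 10.4% lower. In p53-/- MEFs, 6 of the 10 were at least 2-fold higher (Fos, Fosb, Fosl1, Jun, Junb and Atf3) and 0 were lower, where 9.24% of all 16953 measured genes were higher and 6.89% lower. The median log2 ratio of the 10 genes was 0.73 in WT and 1.23 in p53-/- MEFs, and that of all measured genes was 0.01 and 0.00. With the arrays scaled to their median instead, 2 of the 10 were higher and 1 lower in WT (median 0.46) and 5 were higher in p53-/- MEFs (median 0.93), with medians of all genes of -0.27 and -0.30. In these whole-culture samples, a lower signal from fewer cells that express a gene cannot be told apart from less RNA per cell.

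Between the genotypes, the counts of the 10 genes were near those of all genes. Without doxorubicin, 0 of the 10 genes were at least 2-fold higher and 0 lower in p53-/- than in WT MEFs, where 2.15% of 17287 measured genes were higher and 2.61% lower. With doxorubicin, Atf3 was at least 2-fold higher and Fosl1 at least 2-fold lower in p53-/- MEFs, where 11.9% of 17892 genes were higher and 10.3% lower. The difference between the doxorubicin ratios (WT minus p53-/-) was 1 or more on the log2 scale for Fosl1 and -1 or less for Atf3, against 8.37% and 9.86% of 16513 genes measured on all arrays. The comparisons share arrays, so their counts are not independent of each other.

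**Figure D1:**
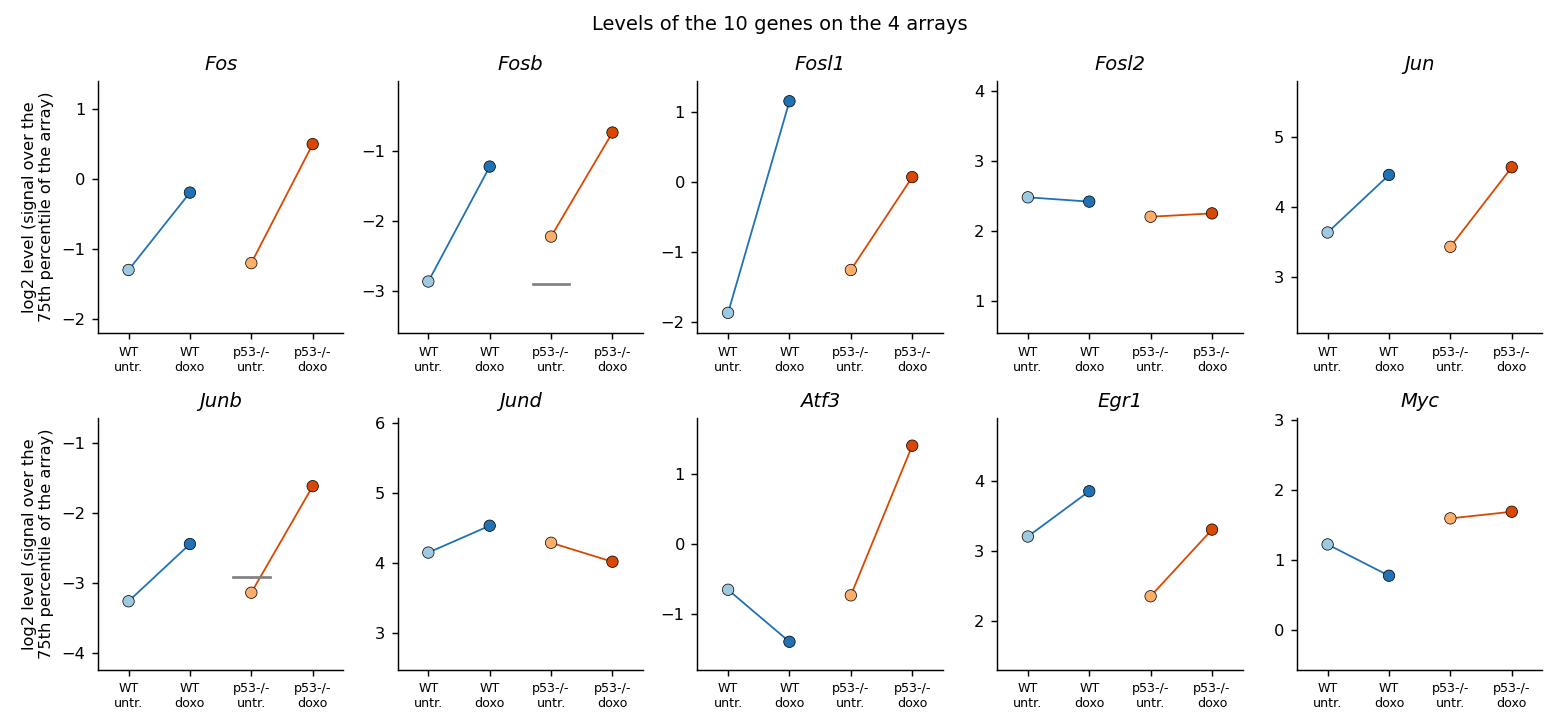
Level of each of the 10 genes (log2 of the signal over the 75th percentile of its array, 1 panel per gene, every panel spanning the same range) on the 4 arrays, with 1 point per array and a line joining the arrays of a genotype; grey bars mark the brightest negative control spot where it falls within the panel. Atf3 is lowest in doxorubicin-treated WT MEFs, as is Myc, and highest in doxorubicin-treated p53-/- MEFs, while Fosl1, Jund and Egr1 are highest in doxorubicin-treated WT MEFs.

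Fos, the founding AP-1 gene, encodes a protein that binds DNA only as the partner of a JUN protein. Its signals were 842 in untreated WT, 1588 in doxorubicin-treated WT, 817 in untreated p53-/- and 3418 in doxorubicin-treated p53-/- MEFs. Both treated arrays were above both untreated arrays, with the treated p53-/- array highest. The log2 ratio with doxorubicin was 1.11 in WT (2.15-fold) and 1.70 in p53-/- MEFs (3.25-fold). The WT value was close to the 2-fold limit, and after scaling to the array median it was 0.83.

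Fos was the 1 gene of the 10 with repeated spots, 10 on each array, so its spread on an array could be read directly. The signals of the spots, before scaling, ran from 768 to 885 in untreated WT and from 1449 to 1695 in doxorubicin-treated WT MEFs. They ran from 739 to 867 in untreated p53-/- and from 3111 to 3531 in doxorubicin-treated p53-/- MEFs, with 9 spots used on each of these arrays because 1 was an outlier. The spots of the 2 untreated arrays overlapped, and those of the treated arrays overlapped neither each other nor the untreated arrays. The SD of the spots on the log2 scale was 0.07, 0.06, 0.07 and 0.05 in that order, and the difference between the ratios (WT minus p53-/-) was -0.59.

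**Figure D2:**
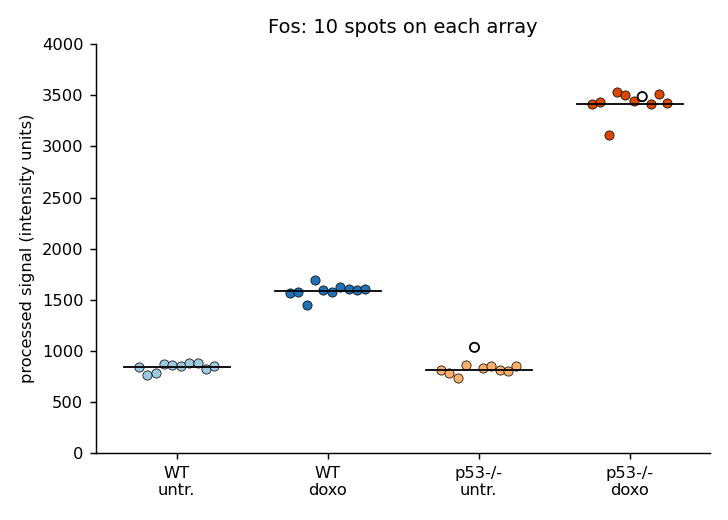
Signal of the 10 Fos spots on each of the 4 arrays (linear axis from 0, before scaling between arrays), with 1 point per spot, open circles for outlier spots that were left out and a bar at the geometric mean. The bars are at 842, 1588, 817 and 3418, and the points of the treated arrays are separate from those of the untreated arrays.

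Fosb and Fosl1 encode further FOS proteins, of which FOSL1 (FRA-1) is made later than FOS and lasts longer. The signals of Fosb were 284 in untreated WT, 777 in doxorubicin-treated WT, 402 in untreated p53-/- and 1449 in doxorubicin-treated p53-/- MEFs. Its log2 ratio was nearly the same in both genotypes, 1.64 in WT (3.12-fold) and 1.49 in p53-/- MEFs (2.80-fold), and the difference of 0.16 was close to the spot error. On every array, the Fosb signal was above the brightest of 153 negative control spots, which had signals of 108, 77.5, 250.1 and 120 in the same order.

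Fosl1 had the highest WT ratio of the 10 genes. Its signals were 569.7 in untreated WT, 4062 in doxorubicin-treated WT, 789.9 in untreated p53-/- and 2551 in doxorubicin-treated p53-/- MEFs. The treated arrays were again above the untreated ones, but here the treated WT array was the highest. The log2 ratio was 3.02 in WT (8.13-fold, above 99.0% of measured genes) and 1.33 in p53-/- MEFs (2.51-fold), a difference of 1.70. With doxorubicin, Fosl1 was 2.12-fold lower in p53-/- than in WT MEFs.

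Fosl2, which encodes FRA-2, did not follow the other FOS genes. The signals of its brighter probe were 11636 in untreated WT, 9778 in doxorubicin-treated WT, 8705 in untreated p53-/- and 11588 in doxorubicin-treated p53-/- MEFs, so the 4 arrays lay close together. The log2 ratio was -0.06 in WT and 0.05 in p53-/- MEFs, and the latter ranged from -0.25 to 0.64 over the processing alternatives. Another Fosl2 probe had signals of 56.0, 42.3, 33.4 and 101.4 in the same order. Only the treated p53-/- array marked it as well above background, and there it was below the brightest negative control spot. The upper end of the range above, 0.64, came from averaging this dim probe with the brighter one.

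The JUN family genes split by member. Jun encodes the JUN protein that pairs with FOS or with itself, and its signals were 25691 in untreated WT, 39830 in doxorubicin-treated WT, 20222 in untreated p53-/- and 57237 in doxorubicin-treated p53-/- MEFs. Both treated arrays were above both untreated arrays. The log2 ratio was 0.82 in WT (1.77-fold) and 1.14 in p53-/- MEFs (2.20-fold), where scaling to the array median gave 0.84.

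Junb encodes a JUN protein that can oppose JUN at some promoters. Its signals were 217 in untreated WT, 336 in doxorubicin-treated WT, 214 in untreated p53-/- and 792 in doxorubicin-treated p53-/- MEFs. The treated p53-/- array was the highest and the untreated arrays were alike, and the log2 ratio was 0.82 in WT (1.76-fold) and 1.52 in p53-/- MEFs (2.87-fold). The untreated p53-/- signal was below the brightest negative control spot of that array, 250.1, and with that value in its place the p53-/- ratio was 1.30 (2.46-fold).

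Jund encodes the JUN protein that resting cells make at a steady level. Its signals were 36837 in untreated WT, 42140 in doxorubicin-treated WT, 36816 in untreated p53-/- and 39280 in doxorubicin-treated p53-/- MEFs. The arrays lay within a narrow range, and the log2 ratio was 0.38 in WT and -0.27 in p53-/- MEFs.

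Atf3 encodes a stress-induced factor of the ATF family that forms dimers with JUN proteins and often represses its targets. Its signals were 1321 in untreated WT, 692 in doxorubicin-treated WT, 1133 in untreated p53-/- and 6424 in doxorubicin-treated p53-/- MEFs. The untreated arrays were alike, the treated WT array was the lowest and the treated p53-/- array was far above the other three. The log2 ratio was -0.74 in WT MEFs (1.67-fold lower) and 2.14 in p53-/- MEFs (4.40-fold higher), where 98.3% of measured genes had a lower ratio.

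The difference between the Atf3 ratios, -2.88 on the log2 scale, was the lowest of the 10 genes, and 0.914% of all genes measured on the 4 arrays had a lower one. With doxorubicin, Atf3 was 6.97-fold higher in p53-/- than in WT MEFs. Over the processing alternatives, the WT ratio ranged from -1.02 to -0.66, the p53-/- ratio from 1.84 to 2.15 and the difference from -2.92 to -2.70. The WT ratio was past 2-fold only after scaling to the array median.

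**Figure D3:**
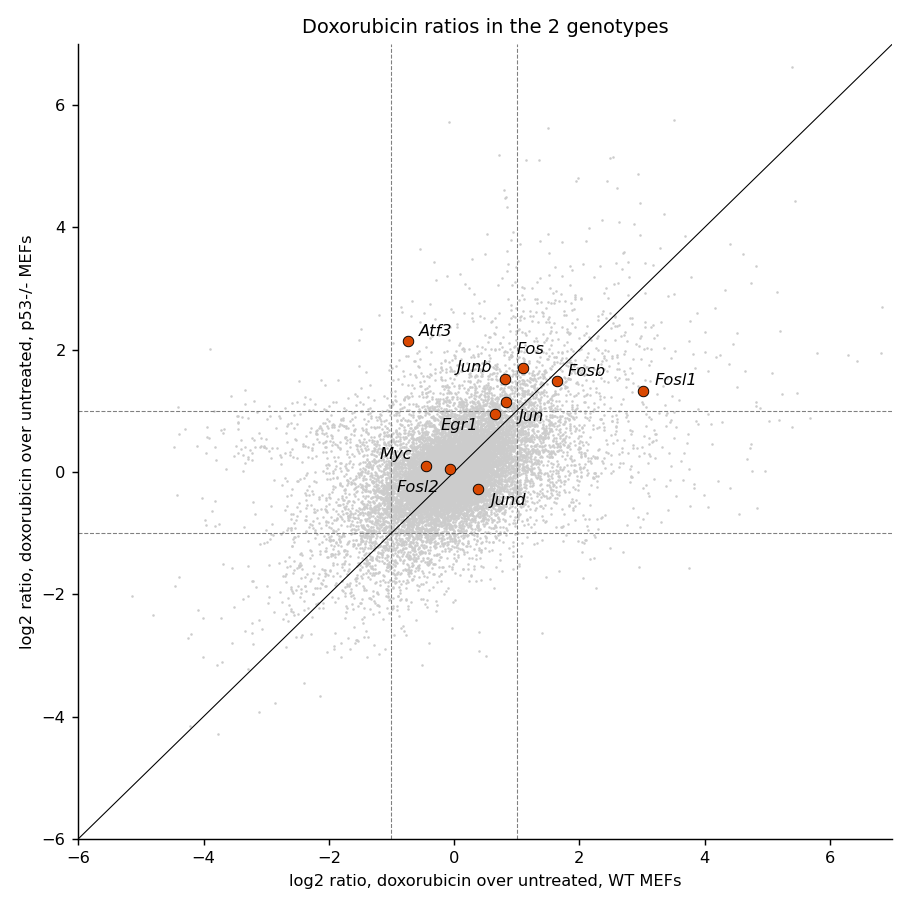
Log2 ratio of doxorubicin over untreated in WT MEFs (horizontal axis) against that in p53-/- MEFs (vertical axis) for the genes measured on all 4 arrays (grey) and the 10 genes (orange, named), with dashed lines at 2-fold and a solid line at equal ratios. Atf3, at -0.74 and 2.14, lies in the upper left, and Fosl1, at 3.02 and 1.33, lies to the right of the line.

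Egr1 and Myc are immediate early factors outside AP-1. Egr1 encodes a zinc finger protein that binds GC-rich sites, and its signals were 19139 in untreated WT, 26280 in doxorubicin-treated WT, 9610 in untreated p53-/- and 23925 in doxorubicin-treated p53-/- MEFs. The untreated p53-/- array was the lowest and the treated WT array the highest. The log2 ratio was 0.65 in WT (1.57-fold) and 0.95 in p53-/- MEFs (1.93-fold), just short of 2-fold. Without doxorubicin, the ratio of p53-/- over WT was -0.85 (1.81-fold lower), and 3.96% of measured genes had a lower value.

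Myc encodes a factor that pairs with MAX and raises genes of ribosome and nucleotide synthesis. Its signals were 4830 in untreated WT, 3107 in doxorubicin-treated WT, 5671 in untreated p53-/- and 7795 in doxorubicin-treated p53-/- MEFs. Both p53-/- arrays were above both WT arrays, and the treated WT array was the lowest. The log2 ratio with doxorubicin was -0.45 in WT and 0.09 in p53-/- MEFs, the latter turning to -0.20 after scaling to the array median. With doxorubicin, the ratio of p53-/- over WT was 0.91 (1.88-fold), short of 2-fold.

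Ordered by level after scaling, 3 of the 10 genes (Fos, Fosb and Junb) had the same order of arrays, with untreated WT lowest, then untreated p53-/-, treated WT and treated p53-/- highest. The log2 distance from the lowest to the highest array was 1.80 for Fos, 2.13 for Fosb and 1.64 for Junb, and the step between the untreated arrays was 0.10 for Fos and 0.12 for Junb, near the spot error, and 0.64 for Fosb. Fosl1 covered 3.02 and Atf3 2.80 on the same scale, while Fosl2 covered 0.28 and Jund 0.51. The range over the 4 arrays was thus widest in Fosl1 and Atf3 and narrowest in Fosl2 and Jund.

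The probes are 60 bases long and their positions are those of the files (mouse build mm9). The Fos probe is at chr12:86817900-86817959, that of Fosb at chr7:19888168-19888227 and that of Fosl1 at chr19:5455496-5455555. The Fosl2 probes are at chr5:32460076-32460135 (the brighter) and chr5:32455088-32455147. The Jun probe is at chr4:94716928-94716987, that of Junb at chr8:87501881-87501940 and that of Jund at chr8:73224436-73224495. The Atf3 probe is at chr1:192994547-192994606, that of Egr1 at chr18:35024395-35024454 and that of Myc at chr15:61821417-61821476. Exon or untranslated region was not assigned, since no annotation of this build was used here.

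Other basic leucine zipper (bZIP) genes were called in both directions. Of 27 further FOS, JUN, ATF, CREB, C/EBP and small MAF family genes, 24 were measured in each genotype. In WT MEFs, 2 were at least 2-fold higher and 6 lower, with a median log2 ratio of -0.33, and in p53-/- MEFs 7 were higher and 3 lower, with a median of 0.35. The 7 include Batf (1.01), whose untreated p53-/- signal of 92.4 was dimmer than the brightest negative control (250.1), and with the control in its place the ratio was -0.42. The shares higher were 8.33% in WT and 29.2% in p53-/- MEFs, against 11.0% and 9.24% of all measured genes, and 6 of 24 and 3 of 24 were lower, against 10.4% and 6.89%. Within 2-fold were 66.7% and 58.3%, against 78.5% and 83.9% of all measured genes. Mafk, a small MAF protein that lacks an activation domain, was higher in both genotypes (1.92 in WT and 1.66 in p53-/-), as was Crem, a cAMP-responsive factor (1.21 and 1.54). Maff, a close relative of Mafk, had ratios of 0.99 and 2.31, with signals of 3527, 6146, 3475 and 22220 in the order untreated WT, treated WT, untreated p53-/- and treated p53-/-. Atf5 (-1.27 and -1.53) and Atf6, a sensor of stress in the endoplasmic reticulum (-1.18 and -1.20), were lower in both genotypes. Cebpb, a regulator of inflammatory and fat cell genes, was lower in WT (-1.31) and within 2-fold in p53-/- MEFs (-0.16). Bach2, a repressor that pairs with small MAF proteins, was the third gene lower in p53-/- MEFs (-1.08, against 0.51 in WT), and is named here after its values were seen. After scaling to the array median, 1 was higher and 6 lower in WT (median -0.61), and 3 were higher and 5 lower in p53-/- MEFs (median 0.06), and Crem in WT MEFs (0.94) was short of 2-fold.

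Among 30 other immediate early genes, 4 of 28 measured were at least 2-fold higher and 1 lower with doxorubicin in WT MEFs (median log2 ratio 0.32), and 12 of 27 were higher and 1 lower in p53-/- MEFs (median 0.96). The share higher was 14.3% in WT, near the 11.0% of all measured genes, and 44.4% in p53-/- MEFs, against 9.24%, while 3.57% and 3.70% were lower, against 10.4% and 6.89%. After scaling to the array median, 3 were higher and 2 lower in WT (median 0.05), and 8 were higher and 3 lower in p53-/- MEFs (median 0.67). Csrnp1 (1.41 in WT and 1.42 in p53-/-), the antiproliferative p53 target Btg2 (1.37 and 1.20) and Klf10, a TGF-β-inducible repressor (1.11 and 1.86), were higher in both genotypes, but with the array median Btg2 in p53-/- (0.90) and Klf10 in WT MEFs (0.83) were short of 2-fold. The Btg2 signals were 5025 and 11409 in untreated and treated WT MEFs and 906 and 2673 in untreated and treated p53-/- MEFs, so that Btg2 was lower in p53-/- MEFs at both states while its ratios were alike. Arc, known from neurons as an activity-induced gene, had a log2 ratio of -0.62 in the WT and of 1.81 in the p53-/- culture, the same pair of directions as Atf3. Klf2, a zinc finger factor of quiescent cells, was the 1 lower gene in WT MEFs (-2.61, against -0.92 in p53-/-), and Srf, which encodes the serum response factor that binds CArG boxes, was the 1 lower gene in p53-/- MEFs (-1.36, against -0.28 in WT). Nab2, a corepressor of EGR proteins, had ratios of -0.97 and -0.25. The fourth gene higher in WT MEFs was Zfp36, whose protein destabilizes cytokine RNA (1.31 and 1.35), which was outside the rule for named genes because its untreated signals (106 and 138) were below the brightest negative control spot. With the control in their place its ratios were 1.28 in WT and, short of 2-fold, 0.49 in p53-/- MEFs.

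Genes for the kinases and factors that act on AP-1 and immediate early promoters were within 2-fold about as often as all genes. Of 28 such genes, 26 were measured in WT MEFs, with 2 higher, 2 lower and a median log2 ratio of 0.11, and 27 in p53-/- MEFs, with 1 higher, 1 lower and a median of -0.21. The shares within 2-fold were 84.6% and 92.6%, against 78.5% and 83.9% of all measured genes. After scaling to the array median, 4 were lower in WT, where the median turned to -0.16, and 3 were lower in p53-/- MEFs, where the median was -0.51. Of all measured genes, 15.9% in WT and 12.4% in p53-/- MEFs were then lower. Map2k3, a kinase upstream of p38, was higher in WT (1.36) and had a ratio of 0.82 in p53-/- MEFs. Mapk3, which encodes ERK1, had ratios of -1.38 and -0.21, and Map2k6, another kinase upstream of p38, -1.07 and -0.41. Mapk9, which encodes the JUN kinase JNK2, had a ratio of 0.96 in WT and of -0.30 in p53-/- MEFs. The kinase genes Map3k1 (0.03 and 0.65) and Braf (-0.86 and -0.94) were within 2-fold. Mrtfa, a coactivator of serum response factor, was lower in p53-/- MEFs (-1.02, against -0.08). Mapk10, which encodes JNK3, had ratios of 2.38 and 2.64, from untreated signals of 82.6 in WT and 74.6 in p53-/- MEFs that were below the brightest negative control spot. With the control in their place the ratios were 1.99 and 0.89, the latter short of 2-fold. It was therefore outside the rule for named genes and is named after its values were seen. RNA levels do not report kinase activity.

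Genes known as AP-1 targets were more often higher than lower with doxorubicin in both genotypes. Of 30 such genes, 26 were measured in each. In WT MEFs, 10 were at least 2-fold higher and 2 lower (median log2 ratio 0.56), and in p53-/- MEFs 8 were higher and 2 lower (median 0.47). The shares higher were 38.5% and 30.8%, against 11.0% and 9.24% of all measured genes, and the share lower was 7.69% in both, against 10.4% and 6.89%. After scaling to the array median, 7 were higher and 4 lower in WT (median 0.28) and 7 were higher and 2 lower in p53-/- MEFs (median 0.17), where 1319 and 2792 of 17513 measured genes were higher and lower in WT and 955 and 2098 of 16953 in p53-/- MEFs. Sprr1a, a cornified envelope precursor, was higher in both (2.77 in WT and 3.44 in p53-/-), as was Fst, the activin antagonist follistatin (1.82 and 1.53). Il6, the inflammatory cytokine, had signals of 515 in untreated WT, 649 in treated WT, 633 in untreated p53-/- and 12146 in treated p53-/- MEFs. The first 3 arrays were alike and the treated p53-/- array was far above them, with log2 ratios of 0.52 and 3.90. Spp1, the secreted matrix protein osteopontin, was lower in both (-2.11 and -1.59), Vegfa, a growth factor for vessels, had ratios of -0.76 and -1.08, and the metallothionein gene Mt2 of -0.90 and 0.50. The second lower gene in WT MEFs, Mmp13, a collagenase, had ratios of -1.46 and 1.12, with signals of 316, 101, 150 and 417 in the order of the Il6 values, the third of which was below the brightest negative control of that array; with the control in its place the p53-/- ratio was 0.37. Many of these genes are also driven by other factors, and AP-1 binding was not measured.

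**Figure D4:**
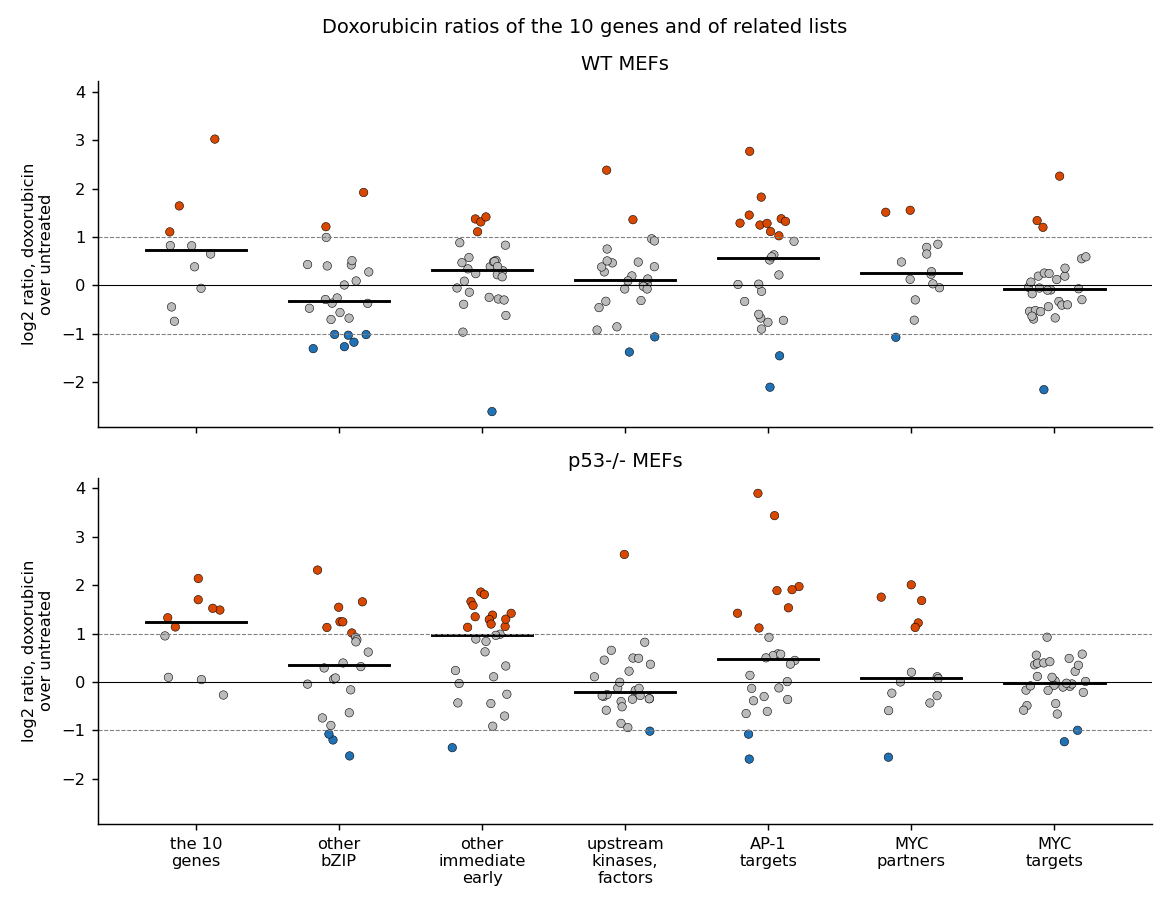
Log2 ratio of doxorubicin over untreated for each measured gene of the 10 genes and the 6 related gene lists, in WT (upper panel) and in p53-/- MEFs (lower panel), with orange points for genes at least 2-fold higher, blue points for genes at least 2-fold lower and a bar at the median of the list. The other immediate early genes have medians of 0.32 and 0.96, and the AP-1 target genes have medians of 0.56 and 0.47.

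The MYC network also held genes with different ratios in the 2 genotypes. Of 16 partners and antagonists of MYC, 14 were measured in each genotype, with 2 higher and 1 lower in WT (median log2 ratio 0.26) and 5 higher and 1 lower in p53-/- MEFs (median 0.09). The shares higher were 14.3% and 35.7%, against 11.0% and 9.24% of all measured genes, and the share lower was 7.14% in both, against 10.4% and 6.89%. After scaling to the array median, 2 were higher in WT and 3 in p53-/- MEFs, against 7.53% and 5.63% of all measured genes. The medians then turned to -0.02 and -0.21. Mxd1, which competes with MYC for MAX, was higher in both (1.51 in WT and 2.01 in p53-/-), and Mycbp2, a large ubiquitin ligase, was lower in both (-1.07 and -1.56). Mxd3, another MAX partner, had signals of 635 in untreated WT, 338 in treated WT, 1506 in untreated p53-/- and 4513 in treated p53-/- MEFs, with ratios of -0.72 and 1.22. Fbxw7, the ubiquitin ligase subunit that marks MYC and JUN for degradation, had signals of 2917, 7498, 1915 and 1634 in the same order, with ratios of 1.55 and -0.59. Mycn, a paralog of Myc, had ratios of 0.65 and 1.75. The remaining genes higher in p53-/- MEFs, named after their values were seen, were Mxd4 (1.13, against 0.85 in WT) and Mycl (1.68, against 0.23). In p53-/- MEFs with the array median, Mxd3 (0.92) and Mxd4 (0.83) were short of 2-fold. The untreated signals of Mycl, 98.6 in WT and 160 in p53-/- MEFs, were below the brightest negative control spots, and with the control in its place the p53-/- ratio was 1.03.

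Of 30 known MYC targets, mostly genes of ribosome and nucleotide synthesis, 30 were measured in WT MEFs, with 3 higher, 1 lower and a median log2 ratio of -0.08. In p53-/- MEFs 29 were measured, with 0 higher, 2 lower and a median of -0.03. Of all measured genes, 11.0% and 9.24% were higher, and the shares lower were 3.33% and 6.90%, against 10.4% and 6.89%. After scaling to the array median, the medians were -0.36 in WT and -0.32 in p53-/- MEFs, and after quantile normalization the latter was 0.01. The ornithine decarboxylase gene Odc1, the first enzyme of polyamine synthesis, had ratios of 1.20 (0.92 with the array median) and 0.92, and Rrp9, a protein of the ribosomal RNA processing machinery, 1.34 and 0.34. The other gene higher in WT was Cad, an enzyme of pyrimidine synthesis (2.26, or 1.54 with the brightest negative control in place of its untreated signal), which was near the negative controls on 3 arrays and was not measured in p53-/- MEFs. Shmt1, an enzyme of one-carbon metabolism, had a ratio of -2.16 in WT and of 0.49 in p53-/- MEFs. Its signals were 498 in untreated WT, 97.8 in treated WT, 982 in untreated p53-/- and 1770 in treated p53-/- MEFs. The treated WT signal was not far above the brightest negative control of that array, 77.5, so ratios that use it are less certain. The genes of cyclin D2 (Ccnd2, -0.67 and -1.24) and of spermidine synthase (Srm, -0.04 and -1.001) were the lower ones in p53-/- MEFs. The cell cycle kinase gene Cdk4 (-0.70 and -0.07) and Pno1 (0.59 and 0.57) were within 2-fold. Between the genotypes, the sign of the ratio was mostly positive for MYC targets: 27 of 30 had a ratio of p53-/- over WT above 0 without doxorubicin (median 0.47) and 25 of 29 with doxorubicin (median 0.32), against 49.7% and 50.03% of all measured genes. At least 2-fold higher in p53-/- MEFs were 2 of them without doxorubicin (Shmt1 and Rrp9) and 4 with it (Shmt1, Nop56, Nolc1 and Dkc1), while 0 and 1 (Ccnd2) were lower. These are 6.67% and 13.8% higher, against 2.15% and 11.9% of all measured genes, of which 2.61% and 10.3% were lower, so the count of higher genes with doxorubicin was near the background. The last 3 genes named as higher encode proteins of ribosome assembly and were named after their values were seen. Rrp9 without doxorubicin (1.02 here) and Nop56 with it (1.03 here) were short of 2-fold with the array median.

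The genes most like Fosl1 and Atf3, the members with the highest and the lowest difference of ratios, were sought among 14104 genes by the Euclidean distance between centered log2 levels over the 4 arrays. Closest to Fosl1 were Septin1 (distance 0.26), Slc23a3 (0.31) and the histone gene H4c9 (0.39), with WT and p53-/- ratios of 3.25 and 1.57, 2.64 and 1.54, and 2.61 and 1.51. Closest to Atf3 were Tslp, an epithelial cytokine (0.16), Slc39a8, a zinc transporter (0.18), and Irf1, an interferon response factor (0.40), with ratios of -0.97 and 2.11, -0.77 and 1.90, and -0.70 and 1.61. With 4 arrays, a small distance is a description of these arrays.

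Markers of other cell types were read beside these values. Of 10 leukocyte markers, 8, 9, 8 and 7 were well above background in untreated WT, treated WT, untreated p53-/- and treated p53-/- MEFs, and their summed signal, in units of the 75th percentile, was 16.2, 23.4, 18.3 and 15.2. The brightest was Itgam, from 26264 to 31691, while the pan-leukocyte gene Ptprc had signals of 65.3, 66.5, 71.6 and 104, all below the brightest negative control spot. Cd14, a receptor for bacterial lipopolysaccharide in the same list, had signals of 513, 6020, 563 and 1117, so its log2 ratio was 3.74 for the WT and 0.62 for the p53-/- culture. It was the 1 leukocyte marker at least 2-fold higher with doxorubicin of 8 measured in WT, and 0 were lower, near the shares of all genes. Of 7 measured in p53-/- MEFs, 0 were higher and 0 lower. In WT MEFs, Csf1r (-0.63) and Lyz2 (-0.57) had ratios below 0, and the other 5 had ratios from 0.20 to 0.46. Cd68, a macrophage marker with signals of 53.2, 211, 49.96 and 41.9, was well above background in treated WT MEFs only and so had no ratio. Of 7 epithelial markers, 3, 5, 3 and 4 were well above background, and the sum was 5.74, 10.5, 5.38 and 18.0. The brightest was Krt18, which is also in the AP-1 target list, with signals of 9825, 16189, 8346 and 40299, and Epcam and Cldn4 were not well above background on any array. With doxorubicin, the keratin gene Krt14 was at least 2-fold higher in both genotypes (1.54 and 1.05, the latter 0.76 with the array median and 0.57 with the brightest negative control in place of its untreated signal), and Krt18 in p53-/- MEFs (1.91, against 0.91 in WT). Krt8, the third epithelial marker with a ratio in each genotype, had signals of 1654, 1052, 1457 and 2338 and log2 ratios of -0.46 for the WT and 0.32 for the p53-/- culture. Krt5 had signals of 52.99, 951, 50.5 and 90.9 and was well above background in treated WT MEFs only, while Cdh1 was so on both treated arrays only. Of 6 endothelial markers 2, 4, 2 and 2 were well above background (brightest Kdr, summed signal 3.69, 4.27, 2.94 and 2.36; Cdh5 and Tie1 on no array), and of 5 muscle markers 3, 2, 3 and 2 (brightest Acta1, sum 7.31, 4.16, 8.17 and 4.73; Myod1 and Ckm on no array). Of the endothelial markers 2 had ratios in each genotype and 0 were higher or lower, and of the muscle markers 2 had ratios, with Acta1 at least 2-fold lower in WT (-1.01, against -0.79 in p53-/-) and Des at 0.22 and -0.76. Scaling to the array median puts both Acta1 and Des past 2-fold lower in p53-/- MEFs, so the call in WT alone depends on the scaling. The part of other cells in the values of the 10 genes was not tested.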

How the data were processed

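RNA of 4 cultures was measured, 1 array per condition. The authors labeled 200 ng of total RNA with Cy3 and used Agilent Feature Extraction (10.7.3.1). The deposited spot intensity had its background and the trends within an array removed by that program and was not normalized between arrays. Flags in the deposited files mark outlier and saturated spots and those well above background. A second deposited table of intensities was equal to the first at 44397 of 44397 spots on each array (relative tolerance 1e-06).

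Outlier spots (162, 153, 145 and 168 of 43020) were left out and 0 were saturated. Copies of a probe were averaged on the log2 scale, and the 75th percentile over 39429 probes was subtracted. Where several probes stood for a gene, the one with the highest mean was used. RefSeq (GRCm38.p6) named 30180 probes, 26055 by transcript accession, 3195 by symbol and 930 by synonym, and 9249 kept the name in the file. The lowest signal called well above background was 56.7, 44.3, 57.9 and 87.1, and 57.5%, 62.9%, 56.9% and 58.4% of the probes were so called. The number of arrays limits the precision.

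The 10 genes, the related lists, the markers and the rules were chosen with earlier results of these data known, and the TGACG motif after the sequences were seen. From each list, the 2 highest and 2 lowest ratios with doxorubicin in each genotype were named, among genes measured and above the brightest negative control spot on all arrays, besides Trp53 and the 3 genes most like each of the 2 members with the extreme differences of ratios.

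Alternatives were quantile normalization, scaling to the median of an array, normexp (limma, offset 50) on the deposited mean and background intensities, no filter on dim probes, a filter asking for well above background on all arrays or for more than the brightest negative control spot, averaging the probes of a gene, the second deposited table, and limits of 1.5-fold and 3-fold. The steps were tested on simulated arrays. Python 3.11.15 (numpy 2.4.6, pandas 2.3.3, scipy 1.17.1, matplotlib 3.10.9) and R 4.3.3 (limma 3.58.1) were used.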

Additional observations from a re-analysis of the deposited data

Results flagged for a closer look

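Ratios with doxorubicin of at least 1.5-fold in opposite directions in the 2 genotypes were found for 7 of 154 genes of the immediate early group and its related lists (4.55%), against 474 of all 16513 genes measured on the 4 arrays (2.87%). Of the 10 immediate early factors, Atf3 was the 1 gene with this pattern. The count was 7 of 154 with the array median (2.76% of all genes), where Mapk9 took the place of Ddit3, and 8 of 154 with quantile normalization (3.17%), which added Batf, whose p53-/- ratio of 1.01 was -0.42 with the brightest negative control in place of its untreated signal. Without the filter on dim probes, 4.00% of all 31703 genes had the pattern. The 154 genes were then still those that passed the filter, so their count of 7 has no matching share under this setting. Genes of the lists that did not pass it, such as Batf3, were not counted. The count was 5 of 154 with normexp (2.05%), without Arc, Fbxw7 and Mxd3 and with Map2k4, and 6 of 144 above the brightest negative control (2.62%), without Mmp13. With 1 array per condition, none of these differences was tested. Atf3 had a log2 ratio of -0.74 in WT and 2.14 in p53-/- MEFs, a difference (WT minus p53-/-) of -2.88. The 3 genes chosen for their likeness to Atf3 share this pattern by that choice, with differences of -3.08 for Tslp, -2.67 for Slc39a8 and -2.31 for Irf1. Of these, Slc39a8 did not have it with normexp, nor Irf1 with the mean of the probes.

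Among the related lists, the same directions were found for Arc (-0.62 and 1.81, a difference of -2.43), Mmp13 (-1.46 and 1.12, a difference of -2.57) and Mxd3 (-0.72 and 1.22, a difference of -1.94). On the untreated p53-/- array, the Mmp13 signal (150) did not reach the brightest negative control (250.1), and with the control in its place the p53-/- ratio was 0.37, under 1.5-fold. The bZIP list held 2 further genes of this kind. They were Cebpd, which encodes a C/EBP factor of the acute phase response (-0.68 and 1.24, a difference of -1.92), and Ddit3, which encodes the stress factor CHOP (-0.71 and 0.83, a difference of -1.53). With the array median the p53-/- ratio of Ddit3 was 0.53, under 1.5-fold. Fbxw7 had the opposite directions, with 1.55 in WT and -0.59 in p53-/- MEFs, a difference of 2.14.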

How the results depend on the processing

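Of 397 values of the 10 genes under alternatives, 44 moved by more than the spot error and 0 called values turned sign. Below 2-fold, Fosl2 changed sign in p53-/- MEFs (-0.25 to 0.64) and between the genotypes with doxorubicin (-0.24 to 0.34), as did Myc in p53-/- MEFs (-0.20 to 0.10). The upper ends for Fosl2, 0.64 and 0.34, came from averaging its brighter probe with its dim one. In WT MEFs, the number of the 10 genes higher with doxorubicin was 6 at a limit of 1.5-fold (20.6% of all measured genes). The number lower was 1 at 1.5-fold (20.0%) and 1 (Atf3) after scaling to the array median (15.9%). The median log2 ratio, 0.73, was 0.46 with the array median, 0.62 with quantile normalization and 0.62 with normexp. In p53-/- MEFs, 2 genes were higher at 3-fold (3.82% of all measured genes), and the median of 1.23 was 0.93 with the array median, 1.15 with normexp and 1.14 above the brightest negative control. With the array median, Fos in WT (0.83) and Jun in p53-/- MEFs (0.84) were no longer past 2-fold. Between the genotypes at 1.5-fold, 2 genes were higher and 1 lower without doxorubicin (8.73% and 8.68% of all measured genes) and 4 were higher and 1 lower with it (22.8% and 19.7%); at 3-fold, 0 were lower with doxorubicin (4.83%), and averaging the probes of each gene gave a median of 0.41 with doxorubicin.

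With the array median, the median log2 ratio over all measured genes was -0.27 in WT, and it was -0.30 for the mutant, so each doxorubicin ratio is lower under it. The calls over all genes were then 1319 higher and 2792 lower in WT (32.1% higher, against 51.4% of 1930 and 1828) and 955 and 2098 in p53-/- MEFs (31.3%, against 57.3% of 1567 and 1168). In p53-/- MEFs, 875 and 1122 genes (43.8% higher) were called above the brightest negative control, where the untreated array has the brightest control of the 4, 250.1. Without a filter, 4900 and 2868 genes were called in WT and 4719 and 2353 in p53-/- MEFs.

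Cultures could not be paired by replicate, because each condition had 1 array and the labels give no replicate numbers. A fit pairing the treated with the untreated array within each genotype, without an interaction, was not run. No array was left out, since none would remain for its condition, and slide was not run as a block because there was 1 slide. Dim probes near the negative controls, such as that of Junb in untreated p53-/- MEFs (214), give less certain ratios.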
